A study of Mus musculus with 24 samples.

Results

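The genes described here are the 10 that fell furthest from PBS-treated mice 1 to 6 in 2 comparisons of mouse visual cortex. They code for receptors and membrane proteins (Gpr101, Gabrq, Fibcd1, Pirt), for secreted proteins (Pappa2, Olfm4), for a desmosomal cadherin (Dsc3) and for an enzyme that modifies heparan sulfate (Ndst4). Arhgap36 codes for an inhibitor of protein kinase A, and Gm26644 is a long non-coding RNA. All 10 were in the count table of 55414 genes and all 10 passed the filter for testing, which kept the 14464 genes that reached 30 counts or more in some library. Gpr101, Dsc3, Pappa2, Gabrq and Olfm4 were selected on PBS mice 13 to 18 against PBS mice 1 to 6. Gm26644, Arhgap36, Fibcd1, Pirt and Ndst4 were selected on psilocybin mice 7 to 12 against PBS mice 1 to 6. In each comparison the 5 largest falls were taken among genes whose edgeR quasi-likelihood adjusted p was under 0.05, whose groups did not overlap and whose mean count was 10 or more. The values of those comparisons are therefore descriptions here and no test is given for them.

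The series held 24 libraries of poly-A RNA from the primary visual cortex of male C57BL/6J mice aged 8 weeks, kept on a reversed light cycle, with 6 libraries in each of 4 groups and each library taken as 1 mouse. Mice received an intraperitoneal injection of PBS or of 5 mg/kg psilocybin, the mushroom compound whose metabolite activates the 5-HT2A serotonin receptor, were then kept in the dark or placed in light, and were killed 2.5 h later. The sample labels and the headings of the study's supplementary count table give the same drug but the opposite light exposure for all 24 libraries, so groups are named below by drug and library number. Mice 1 to 6 received PBS and were labelled PBS-Light (headed PBS Dark), mice 7 to 12 received psilocybin and were labelled Psi-Light (headed Psilocybin Dark), mice 13 to 18 received PBS and were labelled PBS-Dark (headed PBS Light), and mice 19 to 24 received psilocybin and were labelled Psi-Dark (headed Psilocybin Light). Npas4 and Arc, which neuronal activity induces and light is known to induce in visual cortex, were lowest in mice 1 to 6, Arc for example at 1089 ± 333 there against 5902 ± 2511, 7729 ± 3174 and 10248 ± 2379 in mice 7 to 12, 13 to 18 and 19 to 24 (normalized count, SD, n = 6). Npas4 was at 98.2 ± 46.5 in mice 1 to 6 and 505 ± 128 in mice 13 to 18. No group was assigned from these values. By either reading, mice 7 to 12 differed from mice 1 to 6 in drug alone, mice 13 to 18 in light exposure alone, and mice 19 to 24 in both. The region was dissected whole, so every value is a mixture of cell types. No source used here says that the libraries of a group came from separate cages or days, so p-values measure the spread between these libraries.

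The 10 genes do not belong to a common pathway. GPR101 is an orphan G protein-coupled receptor that signals through Gs, GABRQ is the theta subunit of the GABA-A receptor chloride channel, and ARHGAP36 binds the catalytic subunit of protein kinase A and promotes Gli signalling. Gpr101, Gabrq and Arhgap36 are best known in the brain from the hypothalamus and other subcortical nuclei, and Fibcd1, which codes for a membrane receptor of acetylated sugars such as chitin, is best known from hippocampal CA1 pyramidal neurons.

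In GRCm39 with the GENCODE vM39 annotation, 3 of the 10 genes lie on the X chromosome. These are Gpr101 (ENSMUSG00000036357, chrX:56542028-56549117, minus strand), Gabrq (ENSMUSG00000031344, chrX:71868784-71886208, plus strand) and Arhgap36 (ENSMUSG00000036198, chrX:48536999-48589121, plus strand). Fibcd1 (ENSMUSG00000026841) lies at chr2:31702948-31736233 on the minus strand, Pirt (ENSMUSG00000048070) at chr11:66802807-66820712 on the plus strand and Ndst4 (ENSMUSG00000027971) at chr3:125197722-125522549 on the plus strand. Pappa2 (ENSMUSG00000073530) lies at chr1:158539297-158808060 on the minus strand and Olfm4 (ENSMUSG00000022026) at chr14:80221521-80260579 on the plus strand. Gm26644 (ENSMUSG00000097683) lies at chr19:44674188-44739320 on the minus strand and overlaps Pax2 on the opposite strand without sharing exonic sequence. Exons of Pirt overlap Gm12298 and exons of Ndst4 overlap Gm35186, both on the opposite strand, and the strand setting of the counting is not given in the sources used here, so reads of these genes could not be told apart from those of the partner. Exons of Pappa2 overlap 1600012P17Rik and exons of Olfm4 overlap Gm6999 on the same strand. The means of 1600012P17Rik and Gm12298 were 0 in all 4 groups. Gm6999 had a mean normalized count of 7.75 in mice 1 to 6 and of at most 0.504 in the other groups, so its level was far below that of Olfm4.

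The 250 bases before the start of the transcript marked canonical for each gene were searched on both strands for 7 short motifs. For Pappa2, Olfm4 and Arhgap36 this window lies inside the gene span given above, and that of Gm26644 lies partly inside it. Of the 10 windows, 3 are shown. They belong to the gene with the largest fall across light exposure (Gpr101), the gene with the highest level per length (Fibcd1) and a gene whose window holds the CAAT box on both strands and few CpG pairs (Ndst4). Capitals mark GGGCGG (the GC box) and CCAAT (the CAAT box) on either strand, so CCGCCC and ATTGG are their reverse complements. The windows are given 5′ to 3′ on the gene's own strand, from GRCm39 at chrX:56549118-56549367 (minus), chr2:31736234-31736483 (minus) and chr3:125197472-125197721 (plus).
Gpr101: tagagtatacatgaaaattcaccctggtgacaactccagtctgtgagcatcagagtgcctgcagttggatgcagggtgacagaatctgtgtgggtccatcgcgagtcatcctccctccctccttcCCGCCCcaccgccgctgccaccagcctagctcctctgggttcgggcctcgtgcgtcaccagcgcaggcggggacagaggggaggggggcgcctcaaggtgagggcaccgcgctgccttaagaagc
Fibcd1: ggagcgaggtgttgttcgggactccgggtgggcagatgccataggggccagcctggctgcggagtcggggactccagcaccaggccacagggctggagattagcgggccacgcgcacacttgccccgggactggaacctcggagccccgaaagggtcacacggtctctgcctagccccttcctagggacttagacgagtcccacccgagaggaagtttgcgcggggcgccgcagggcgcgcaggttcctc
Ndst4: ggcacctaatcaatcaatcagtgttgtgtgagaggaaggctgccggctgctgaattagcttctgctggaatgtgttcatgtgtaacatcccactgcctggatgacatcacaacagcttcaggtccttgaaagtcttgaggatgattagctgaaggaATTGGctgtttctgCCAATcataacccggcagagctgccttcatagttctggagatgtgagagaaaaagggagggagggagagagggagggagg
The GC box was found in 3 of the 10 windows (Gpr101, Dsc3, Gabrq) against 47.6% of 14426 windows of tested genes, and the CAAT box in 4 of 10 (Pappa2, Gabrq, Olfm4, Ndst4) against 35.3%. The cAMP response element TGACGTCA was in 0 of 10 windows and 2.02% of all, and its shorter form TGACG, which the full element contains, was in Gpr101 alone, unmarked above, and in 22.5% of all. The E-box CACGTG (7.54% of all), the early growth response site GCGTGGGCG (0.769%) and the TATA letters TATAAA (7.38%) were in 0 of 10. The windows of Fibcd1, Gpr101 and Ndst4 held 20, 13 and 2 CpG pairs, Pappa2 held 0, and the median of all windows was 12. These are matches of letters, and no binding was measured.

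Total counts ranged from 13552516 to 17906994 per library, and values below are TMM-normalized counts scaled to a library of 16058300. Some libraries stood apart in marker genes of other brain regions, and all 3 of the comparisons against mice 1 to 6 rest on some of them. The summed level of 9 cerebellar genes was 68878 in PBS mouse 6, 33062 in PBS mouse 1, 31640 in psilocybin mouse 12 and 19495 in PBS mouse 18, against 321 to 2513 in the other libraries, and 0, 0 and 7 of the 9 were called lower in mice 7 to 12, 13 to 18 and 19 to 24, where 12.8%, 16.5% and 21.0% of all genes were. PBS mouse 1 also had 3058 for 8 midbrain and brainstem genes, where the other libraries had at most 510, and 989 for 5 basal forebrain cholinergic genes, where the others had at most 73.1. Of the latter list, 2 of 3 tested were called lower in each other group. From these lists, Chat, Slc5a7, Slc6a2 and Dbh were at 191, 715, 1164 and 687 in mouse 1. In the other libraries they were at most at 12.8, 25.0, 5.57 and 10.2. They passed the filter through mouse 1 alone, where they were high, so nothing is read from the calls of the 2 lists. Of the marker lists of the sampled tissue, the 4 layer 4 genes of sensory cortex (Scnn1a, Rspo1, Rorb, Cux2) summed to 943 to 2053 in mice 1 to 6 and to 2654 to 4235 in the other 18 mice, with no overlap, and all 4 were called higher in each other group, as were 3, 3 and 4 of 7 genes of cortical projection neurons in mice 7 to 12, 13 to 18 and 19 to 24, where 11.9%, 15.4% and 17.4% of all genes were called higher. The lists for thalamus, striatum, choroid plexus, meninges, blood, GABAergic neurons, astrocytes, oligodendrocytes and microglia each had between 0 and 2 genes called higher and between 0 and 3 called lower in each comparison. Their part in the results below was not tested, and in bulk tissue fewer cells of a type and less RNA per cell cannot be told apart.

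Across the 10 genes, every fitted log2 fold change against PBS mice 1 to 6 was negative in the 3 other groups. The median was -3.57 in PBS mice 13 to 18, with a range of -5.47 to -2.32, against a median of -0.01 over all 14464 genes. In psilocybin mice 7 to 12 the median was -3.22 (range -6.24 to -1.66), against -0.02 over all genes. In psilocybin mice 19 to 24 the median was -3.68 (range -6.40 to -2.52), against -0.02 over all genes. The 3 comparisons share mice 1 to 6, and the choice of the genes fixed 5 of the directions in each of the first 2. All 6 mice lay below all 6 of mice 1 to 6 for 6 of the 10 genes in mice 13 to 18 (4.41% of all genes), for 5 of 10 in mice 7 to 12 (2.45%) and for 6 of 10 in mice 19 to 24 (7.56%). The rule fixed 5 of those genes in each of the first 2 comparisons, so nothing is read from those counts. Genes called lower than in mice 1 to 6 by the adjusted p made up 16.5% of all genes in mice 13 to 18 and 12.8% in mice 7 to 12. Fibcd1 alone of the 10 lay without overlap below mice 1 to 6 in all 3 groups.

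**Figure D1:**
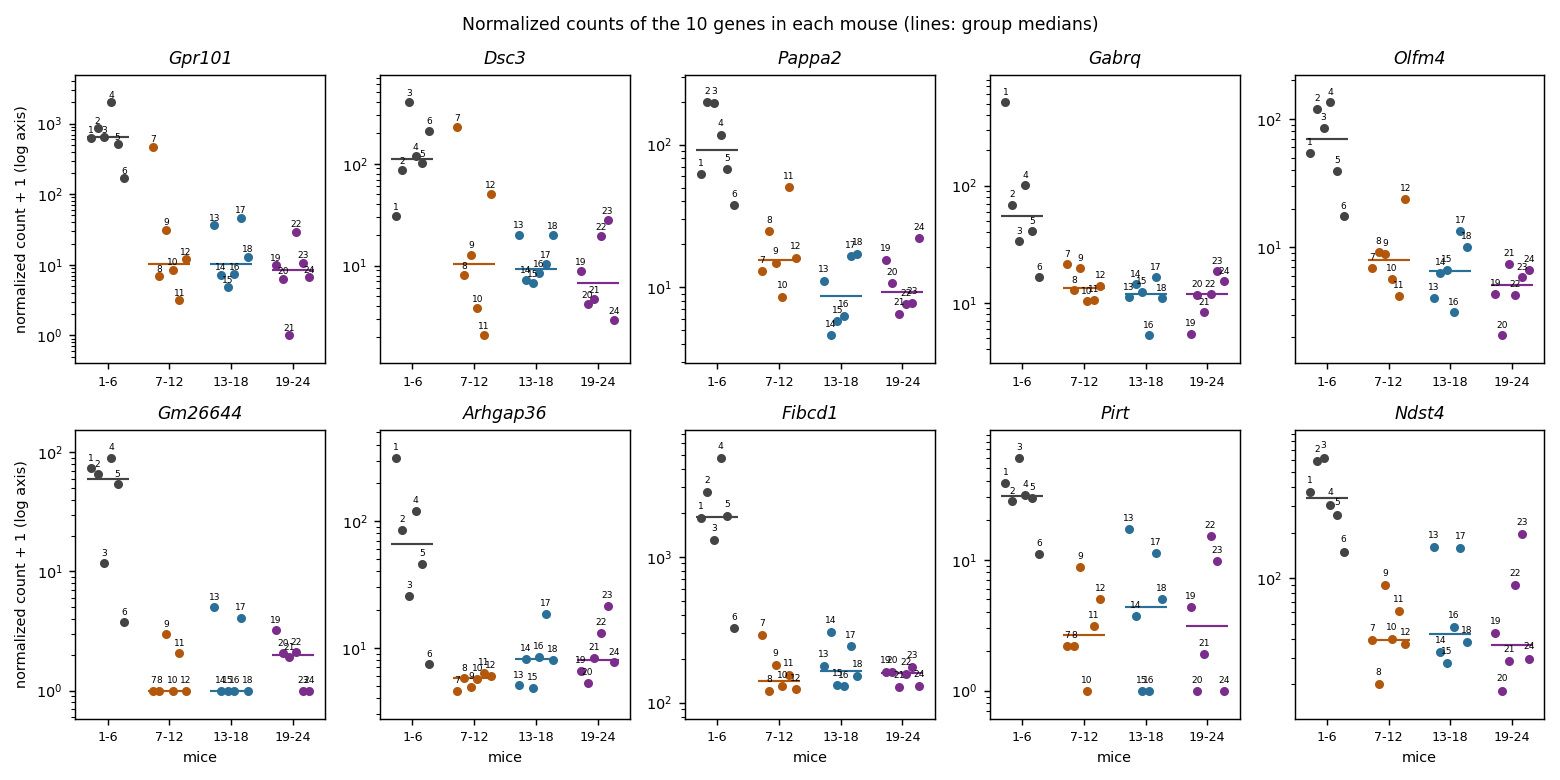
Normalized count plus 1 (log axis) of each of the 10 genes in each of 24 mice, numbered by library, with group medians as lines. Mice 1 to 6 received PBS (labelled PBS-Light, headed PBS Dark), 7 to 12 psilocybin (Psi-Light, Psilocybin Dark), 13 to 18 PBS (PBS-Dark, PBS Light) and 19 to 24 psilocybin (Psi-Dark, Psilocybin Light), and the median of mice 1 to 6 is the highest of the 4 in every panel.

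The edge of the choice was narrow in both comparisons. In mice 13 to 18 against mice 1 to 6, the last gene taken was Olfm4 with a log2 fold change of -3.53. The next was Fibcd1 at -3.51, a member through the other comparison, and the first gene outside the set was Dcn, which codes for the matrix proteoglycan decorin, at -3.38. In mice 7 to 12 against mice 1 to 6, the last gene taken was Ndst4 at -3.02 and the first outside was again Dcn at -3.00. The mean normalized count of Dcn was 2254 in mice 1 to 6, 217 in mice 13 to 18 and 282 in mice 7 to 12. Dcn is 1 of the 8 genes of the meninges list, whose summed level had a median of 4015 in mice 1 to 6. The medians were 2027, 1618 and 1502 in mice 7 to 12, 13 to 18 and 19 to 24. The median log2 fold change of the list genes was 0.06 in mice 13 to 18 and 0.17 in mice 7 to 12. The part of meningeal tissue was not tested.

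Gpr101, the Gs-coupled orphan receptor, ranged from 168 to 1993 in PBS mice 1 to 6, with a median of 640. Its normalized counts lay between 3.82 and 45.4 in PBS mice 13 to 18 (median 9.23) and between 0 and 28.5 in psilocybin mice 19 to 24 (median 7.32), both without overlap with mice 1 to 6. In psilocybin mice 7 to 12 the median was 9.27, and mouse 7 alone, at 471, lay inside the range of mice 1 to 6. The other 5 mice of that group lay between 2.14 and 30.5. Gpr101 was 44.4-fold lower in mice 13 to 18 than in mice 1 to 6 by the fit (log2 fold change -5.47, SE 1.00), and the log2 fold changes were -3.23 (SE 0.85) in mice 7 to 12 and -6.40 (SE 1.08) in mice 19 to 24. Without mouse 7, the log2 fold change of mice 7 to 12 was -6.09. Of the 7 other constitutively active Gs-coupled orphan receptors in the table, 1 was higher and 0 were lower in mice 13 to 18 than in mice 1 to 6 (15.4% and 16.5% of all genes), and 2 were higher and 0 lower in mice 7 to 12 (11.9% and 12.8%). Gpr61 was the gene called in both, at a log2 fold change of 0.32 (SE 0.09, adjusted p = 0.00962) and 0.28 (SE 0.09, adjusted p = 0.0274), and Gpr3 rose by 0.86 in mice 7 to 12 (SE 0.20, adjusted p = 0.00286).

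Gabrq, the GABA-A theta subunit, was carried in PBS mice 1 to 6 largely by mouse 1, which held 66.6% of the summed level of the 6 mice. Its normalized counts in mice 1 to 6 ran from 15.5 in mouse 6 to 510 in mouse 1, with a median of 53.8. The range was 4.26 to 15.5 in mice 13 to 18 (median 10.8), 9.40 to 20.3 in mice 7 to 12 (median 12.4) and 4.46 to 17.5 in mice 19 to 24 (median 10.8). Mice 13 to 18 did not overlap with mice 1 to 6, although the highest of them, mouse 17, was nearly level with mouse 6, and mice 7, 9 and 23 lay above mouse 6. The fitted log2 fold changes were -3.54 (SE 0.64), -3.20 (SE 0.63) and -3.53 (SE 0.64) for mice 13 to 18, 7 to 12 and 19 to 24. Without mouse 1 they were -2.22, -1.88 and -2.20.

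Of 15 other GABA-A subunit genes tested, 6 were lower and 1 higher in mice 13 to 18 than in mice 1 to 6 (16.5% and 15.4% of all genes). The median log2 fold change was -0.16. In mice 7 to 12, 5 were lower and 3 higher (12.8% and 11.9% of all genes), with a median of -0.03. Gabre, which codes for the epsilon subunit and belongs to the same X-linked cluster of subunit genes, was at 26.5 ± 41.5 in mice 1 to 6, 3.77 ± 2.03 in mice 13 to 18 and 3.82 ± 1.61 in mice 7 to 12 (normalized count, SD, n = 6). Its log2 fold changes were -2.78 (SE 0.67, edgeR adjusted p = 0.00288) and -2.76 (SE 0.67, edgeR adjusted p = 0.00448). The SD of Gabre in mice 1 to 6 was larger than its mean, so these values may rest on few mice. Gabra5, the alpha 5 subunit of extrasynaptic receptors, fell by 1.08 and by 0.82 on the log2 scale, and Gabra2 fell by 0.87 and by 0.74.

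Fibcd1, the receptor of acetylated sugars, had the highest level per kilobase of exon of the 10 genes, with a mean of 406 normalized counts per kb in mice 1 to 6. Gpr101 followed at 149, Ndst4, Dsc3, Olfm4, Arhgap36 and Gabrq lay between 23.8 and 29.4, and Pappa2, Pirt and Gm26644 lay at 10.9, 7.28 and 5.97 on the same scale. The normalized count of Fibcd1 ran from 322 in mouse 6 to 4785 in mouse 4 of mice 1 to 6, with a median of 1878. It was 120 to 292 in mice 7 to 12 (median 140), 128 to 305 in mice 13 to 18 (median 164) and 127 to 175 in mice 19 to 24 (median 159). No mouse of the other 3 groups reached mouse 6, and the closest were mice 14 and 7. Against mice 1 to 6 its log2 fold changes were -3.71 (SE 0.42) in mice 7 to 12, -3.51 (SE 0.41) in mice 13 to 18 and -3.83 (SE 0.42) in mice 19 to 24, or 13.0-fold, 11.4-fold and 14.2-fold lower. Of 8 other genes for fibrinogen-like domain proteins tested, 3 were lower and 0 higher in mice 13 to 18 (16.5% and 15.4% of all genes). In mice 7 to 12, 1 was lower and 0 were higher (12.8% and 11.9%). Angpt1, which codes for a ligand of the Tie2 receptor, was lower in both, with log2 fold changes of -1.85 (SE 0.39) and -1.13 (SE 0.38), and Tnc, which codes for the matrix protein tenascin C, at -1.41 (SE 0.35), and Tnr, at -0.32 (SE 0.10), were lower in mice 13 to 18.

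Pirt, which codes for a membrane protein that binds phosphoinositides and regulates TRP channels in sensory neurons, had low counts. It ranged from 10.1 to 59.3 in mice 1 to 6 (median 29.6) and from 0 to 7.88 in mice 7 to 12 (median 1.67), without overlap. The ranges were 0 to 16.2 in mice 13 to 18 (median 3.36) and 0 to 14.2 in mice 19 to 24 (median 2.13), and mice 13, 17 and 22 lay above mouse 6. Fitted log2 fold changes were -3.46 (SE 0.79), -2.52 (SE 0.71) and -2.81 (SE 0.74) in mice 7 to 12, 13 to 18 and 19 to 24. Without mouse 9 the first was -4.13, without mouse 13 the second was -3.20 and without mouse 22 the third was -3.56. Of 10 TRP channel genes tested, 4 were lower and 1 higher in mice 13 to 18 (16.5% and 15.4% of all genes). In mice 7 to 12, 3 were lower and 0 higher (12.8% and 11.9%). The medians were -0.21 and -0.14. Trpc4, a calcium-permeable channel, was called lower in both, with log2 fold changes of -0.94 (SE 0.27) and -0.89 (SE 0.27). Trpm3 was also called lower in both (-0.77, SE 0.25, and -0.73, SE 0.25), as was Trpm2 (-0.31, SE 0.06, and -0.33, SE 0.06), while Trpc5 was called lower in mice 13 to 18 (-0.99, SE 0.18).

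Pappa2, a metalloproteinase that cleaves insulin-like growth factor binding proteins, ranged from 36.6 to 197 in mice 1 to 6 (median 90.9). Its range was 3.59 to 16.1 in mice 13 to 18 (median 7.71) and 5.50 to 21.0 in mice 19 to 24 (median 8.23), without overlap in either. In mice 7 to 12 it ranged from 7.52 to 49.2 (median 14.4), and mouse 11 at 49.2 lay above mouse 6. Pappa2 had log2 fold changes of -3.59 (SE 0.50) in mice 13 to 18, -2.47 (SE 0.46) in mice 7 to 12 and -3.37 (SE 0.50) in mice 19 to 24. Of 12 other genes of the insulin-like growth factor axis tested, 3 were lower and 2 higher in mice 13 to 18 (16.5% and 15.4% of all genes). In mice 7 to 12, 1 was lower and 2 were higher (12.8% and 11.9%). The medians were -0.08 and 0.09. Igfbp3, which codes for a binding protein that PAPPA2 cleaves, was lower in both (log2 fold change -0.97, SE 0.19, and -0.88, SE 0.19). Igfbp6 (1.68, SE 0.20, and 1.44, SE 0.20) and Igfbp4 (0.97, SE 0.21, and 0.79, SE 0.21), which code for other binding proteins, were higher in both.

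Olfm4, a secreted glycoprotein best known as a marker of intestinal stem cells, ranged from 16.4 to 133 in mice 1 to 6 (median 68.9). It ranged from 2.13 to 12.4 in mice 13 to 18 (median 5.56) and from 1.07 to 6.42 in mice 19 to 24 (median 4.10), without overlap. In mice 7 to 12 it ranged from 3.21 to 23.0 (median 6.93), and mouse 12 at 23.0 was the only mouse above mouse 6. Olfm4 had log2 fold changes of -3.53 (SE 0.50), -3.03 (SE 0.48) and -4.10 (SE 0.53) in mice 13 to 18, 7 to 12 and 19 to 24. Of 11 other olfactomedin-domain genes tested, 1 was higher and 1 lower in mice 13 to 18 (15.4% and 16.5% of all genes). In mice 7 to 12, 1 was higher and 0 were lower (11.9% and 12.8%). Olfm2 was the higher gene in both, at 1.01 (SE 0.15) and 0.92 (SE 0.15), and Adgrl3, which codes for the adhesion receptor latrophilin 3, was the lower one at -0.33 (SE 0.07).

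Ndst4, which codes for an N-deacetylase and N-sulfotransferase that modifies heparan sulfate chains, ranged from 149 to 623 in mice 1 to 6 (median 338) and from 19.0 to 89.7 in mice 7 to 12 (median 38.4), without overlap. It ranged from 26.7 to 161 in mice 13 to 18 (median 42.0) and from 17.2 to 194 in mice 19 to 24 (median 35.5). Mice 13, 17 and 23, at 161, 158 and 194, lay above mouse 6, and the next highest of the 18 mice was mouse 9. The log2 fold changes were -3.02 (SE 0.57) in mice 7 to 12, -2.32 (SE 0.55) in mice 13 to 18 and -2.52 (SE 0.55) in mice 19 to 24, the last -3.23 without mouse 23. Of 17 other heparan sulfate genes tested, 3 were higher and 3 lower in mice 13 to 18 (15.4% and 16.5% of all genes). In mice 7 to 12, 4 were higher and 3 lower (11.9% and 12.8%). The medians were 0.00 and 0.05. Hs3st2, a 3-O-sulfotransferase, was higher in both (log2 fold change 1.35, SE 0.26, and 1.49, SE 0.27). Hs6st2, a 6-O-sulfotransferase, was lower in both (-0.96, SE 0.11, and -0.78, SE 0.11). Sulf1, which removes 6-O-sulfate, was also lower in both (-0.80, SE 0.15, and -0.57, SE 0.15), and Ext1, a chain polymerase, was higher in both (0.58, SE 0.14, and 0.78, SE 0.15).

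Dsc3 (ENSMUSG00000059898, chr18:20093987-20135408, minus strand), the desmosomal cadherin desmocollin 3, differed from the other members in which of mice 1 to 6 was low. It was lowest in mouse 1 at 29.5 and highest in mouse 3 at 398, with a median of 110. It ranged from 5.73 to 19.2 in mice 13 to 18 (median 8.38) and from 1.91 to 27.2 in mice 19 to 24 (median 5.74), without overlap in either. In mice 7 to 12 it ranged from 1.07 to 230 (median 9.47), and mice 7 and 12, at 230 and 49.0, lay inside the range of mice 1 to 6. Dsc3 had log2 fold changes of -3.80 (SE 0.90), -1.66 (SE 0.78) and -3.90 (SE 0.91) in mice 13 to 18, 7 to 12 and 19 to 24, and -3.42 for mice 7 to 12 without mouse 7 and -4.49 for mice 19 to 24 without mouse 23. Of 6 other desmosome genes tested, 1 was lower and 0 higher in mice 13 to 18 (16.5% and 15.4% of all genes). The counts were the same in mice 7 to 12 (12.8% and 11.9%), and the medians were -0.64 and -0.56. The lower gene in both was Pkp4, the armadillo protein plakophilin 4, at -0.55 (SE 0.07) and -0.43 (SE 0.07).

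Arhgap36, the protein kinase A inhibitor, was like Gabrq in that mouse 1 held 53.0% of the summed level of mice 1 to 6. It ran from 6.40 in mouse 6 to 315 in mouse 1 (median 64.5), and from 3.59 to 5.35 in mice 7 to 12 (median 4.72), without overlap. The ranges were 3.82 to 17.6 in mice 13 to 18 (median 7.11) and 4.30 to 20.4 in mice 19 to 24 (median 7.01), with 4 mice of each group above mouse 6. The log2 fold changes were -4.41 (SE 0.68) in mice 7 to 12, -3.65 (SE 0.63) in mice 13 to 18 and -3.38 (SE 0.62) in mice 19 to 24, and without mouse 1 they were -3.58, -2.82 and -2.54. Of 13 genes of protein kinase A and Gli signalling tested, 5 were lower and 0 higher in mice 13 to 18 (16.5% and 15.4% of all genes). In mice 7 to 12, 4 were lower and 1 higher (12.8% and 11.9%). The median was -0.18 in both. Arhgap6, its closest paralogue in the list, had log2 fold changes of -2.70 (SE 0.38) and -2.13 (SE 0.37). Ptch1 (-0.68, SE 0.20, and -0.64, SE 0.20) and Smo (-0.52, SE 0.18, and -0.50, SE 0.18), the receptor and transducer of Hedgehog ligands, were also lower in both.

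Gm26644, the long non-coding RNA, was close to the limit of detection outside mice 1 to 6. It ranged from 2.74 in mouse 6 to 89.3 in mouse 4 of mice 1 to 6, with a median of 59.0. The raw counts summed to 315 in mice 1 to 6, 3 in mice 7 to 12, 7 in mice 13 to 18 and 5 in mice 19 to 24. It was at 0 in 4 of mice 7 to 12, 4 of mice 13 to 18 and 2 of mice 19 to 24, and mice 13 and 17 lay above mouse 6. The ratio of mice 1 to 6 over mice 7 to 12, the comparison that chose this gene, was 94.2 from the summed counts. The same ratio was 42.9 over mice 13 to 18 and 58.7 over mice 19 to 24. These ratios pool mice whose raw counts ran from 3 in mouse 6 to 94 in mouse 4, and no interval is given for them.

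**Figure D2:**
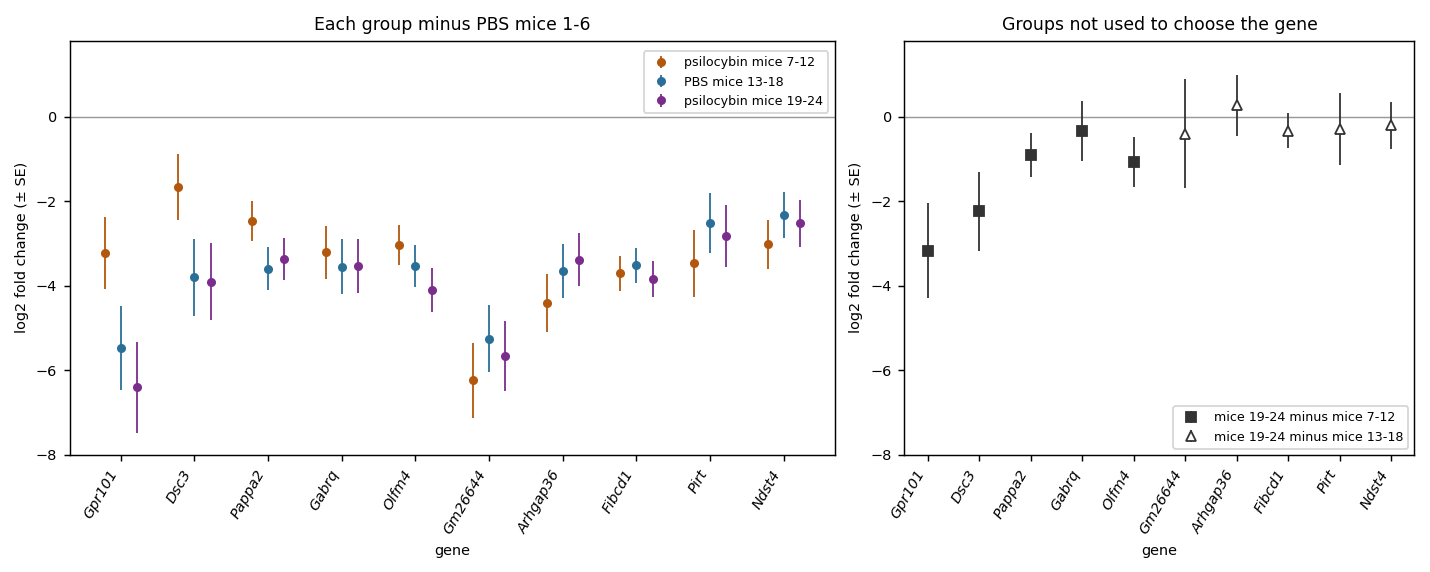
Log2 fold change with its standard error of each gene, on the left for the 3 groups against PBS mice 1 to 6 and on the right for the comparison whose mice did not choose that gene. All points on the left are below 0, at -1.66 or lower, and on the right Gpr101 (-3.17) and Dsc3 (-2.24) lie furthest from 0. Gabrq, Olfm4, Gm26644, Arhgap36 and Pirt on the right carry no test.

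The 10 genes varied more between mice than most genes did. In mice 1 to 6 the median SD of their log2 levels was 1.19, against 0.22 over all 14464 genes, and in mice 7 to 12, 13 to 18 and 19 to 24 it was 0.75, 0.70 and 0.65 against 0.14, 0.13 and 0.12. Genes of low count vary more from counting alone, and the comparison was not matched for level. Within mice 1 to 6, mouse 6 was the lowest for 9 of the 10 genes, the exception being Dsc3. The highest was mouse 4 for Gpr101, Olfm4, Gm26644 and Fibcd1, mouse 3 for Dsc3, Pirt and Ndst4, mouse 1 for Gabrq and Arhgap36 and mouse 2 for Pappa2, so the genes did not share a single mouse. Over the 45 pairs of genes, Spearman's rho across these 6 mice ranged from -0.77, for Dsc3 with Arhgap36, to 1, with a median of 0.37 and 7 pairs below 0. These are descriptions over 6 mice that share the libraries and their depth.

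**Figure D3:**
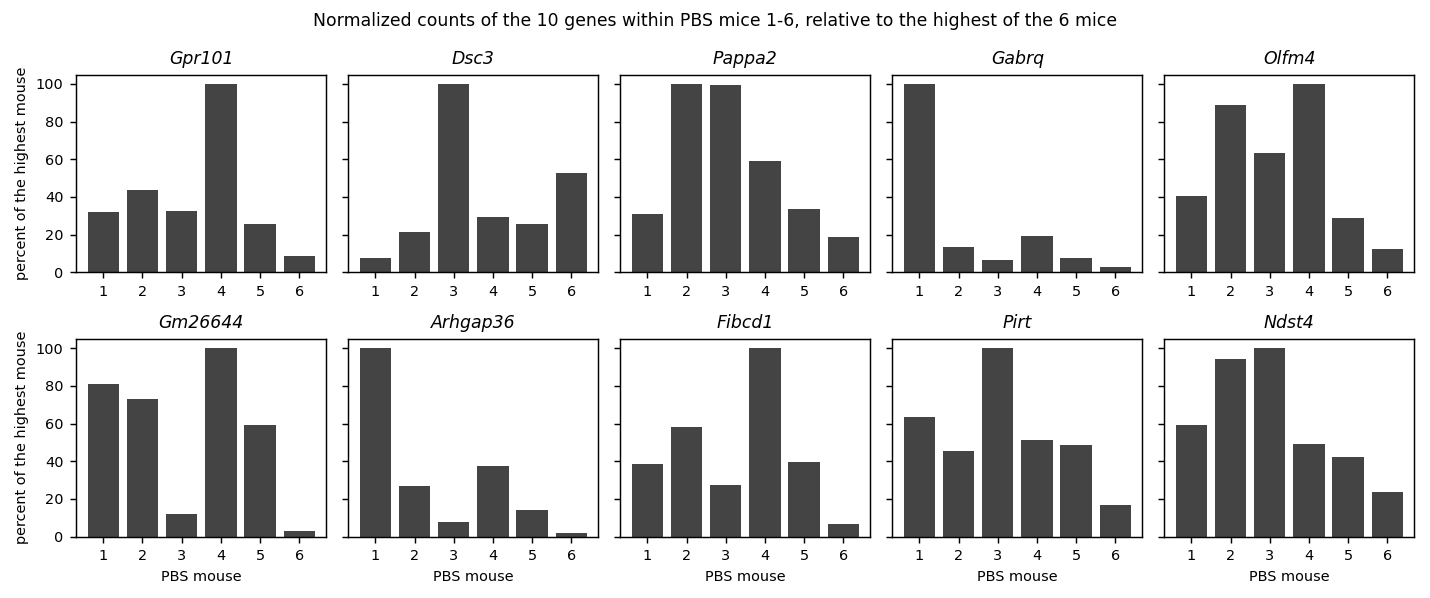
Normalized count of each of the 10 genes in PBS mice 1 to 6 (labelled PBS-Light, headed PBS Dark), as a percentage of the highest of the 6 mice. Bars start at 0, mouse 6 is the lowest bar in every panel but Dsc3, and mouse 1 stands far above the rest for Gabrq and Arhgap36.

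Summed levels of some marker lists of other brain regions were higher in mice 1 to 6 than in most other mice. In mice 1 to 6, 13 hippocampal genes summed to 4111 to 6959, against 2820 to 5595 in the other 18 mice, and of 10 tested 4 were lower in mice 13 to 18, 2 in mice 7 to 12 and 5 in mice 19 to 24, with the rest not called, beside 16.5%, 12.8% and 21.0% of all genes. A single gene, Wfs1, gave 4805 of the 6959 in mouse 3 and 1079 of the 4111 in mouse 1. Wfs1 was not called in any of these comparisons. Spink8 and Dsp, at most at 21.7 and 15.1 outside mice 1 to 6, passed the filter through those mice, so nothing is read from their calls. The 6 genes of the basolateral amygdala and claustrum summed to 3000 to 7333 in mice 1 to 6 and to 1491 to 4311 in the others, and 3, 2 and 4 of the 6 tested were lower. The 10 hypothalamic genes summed to 33.4 to 1673 in mice 1 to 6 and to 23.4 to 142 in the others, and 2 of 3 tested were lower in each group. In mice 1, 2, 4 and 5 most of that sum was Trh, the thyrotropin-releasing hormone gene, at 1637 in mouse 4, 1094 in mouse 2, 527 in mouse 5, 234 in mouse 1, 16.4 in mouse 6 and 6.47 in mouse 3, while Hcrt was at 0 in all of mice 1 to 6. Outside mice 1 to 6, Trh and Otp were at most at 18.2 and 2.00. They passed the filter through mice 1 to 6, so nothing is read from the 2 of 3 called lower. Mouse 4, the highest in Trh, was the highest in Gpr101, Olfm4, Gm26644 and Fibcd1, and mouse 3, the lowest in Trh, was the highest in Dsc3, Pirt and Ndst4. The sum of 8 midbrain and brainstem genes was highest in mouse 1, as were Gabrq and Arhgap36. Of 7 tested, 4, 4 and 5 were lower in mice 13 to 18, 7 to 12 and 19 to 24, and 1 was higher in each. Some of the 7 passed the filter through mouse 1 alone, as given above, so nothing is read from these counts. The midbrain and brainstem sum was 3058 in mouse 1 and 510 in mouse 6 but 41.8 to 55.7 in mice 2 to 5. The medians of mice 7 to 12, 13 to 18 and 19 to 24 were 79.1, 95.5 and 81.9, above mice 2 to 5. The part of these regions in the fall of the 10 genes was not tested.

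Psilocybin mouse 7, the highest of mice 7 to 12 in Gpr101 and Dsc3, was also the highest of its group in the hippocampal list (5595) and in the amygdala and claustrum list (4311), and its layer 4 sum was 3790. Mouse 12 was nearly level with it in the hippocampal list (5587), and its normalized count of Gpr101 was 11.0 and of Dsc3 49.0. Most of both sums was Wfs1, at 3809 in mouse 7 and 3852 in mouse 12. Whether the marker lists and these 2 genes are related was not tested. Leaving out the 4 libraries with high cerebellar levels (mice 1, 6, 12 and 18), an alternative chosen after seeing the data, gave median log2 fold changes of -3.88 in mice 13 to 18, -3.55 in mice 7 to 12 and -3.89 in mice 19 to 24. Gabrq moved the most, from -3.54, -3.20 and -3.53 to -2.43, -2.11 and -2.44, and Arhgap36 moved from -3.65, -4.41 and -3.38 to -3.09, -3.90 and -2.83.

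**Figure D4:**
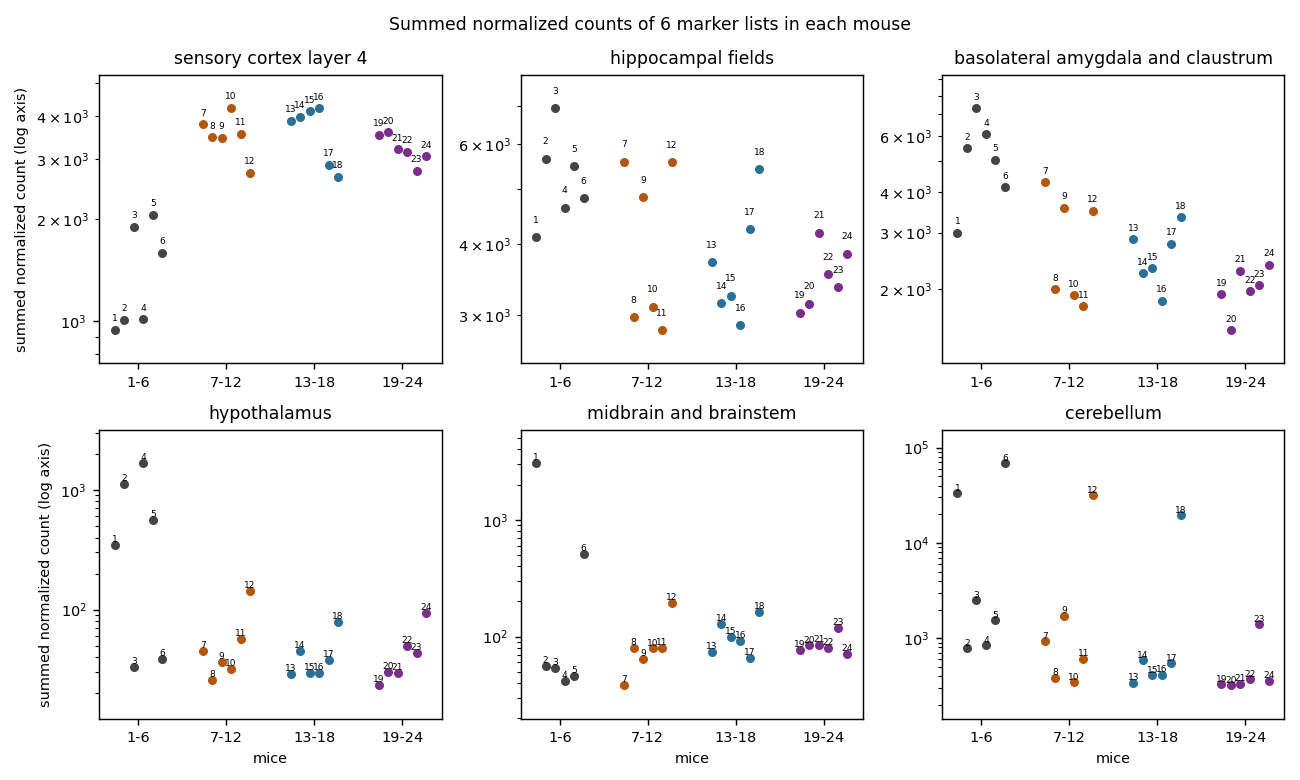
Summed normalized count (log axis) of 6 marker lists in each of 24 mice, numbered by library. Mice 1 to 6 lie below the other 18 for layer 4 of sensory cortex, mice 1, 2, 4 and 5 are the highest for the hypothalamic list, mouse 1 for the midbrain and brainstem list, and mice 1, 6, 12 and 18 for the cerebellar list.

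For each gene there was a comparison whose mice did not choose it. For Gpr101, Dsc3, Pappa2, Gabrq and Olfm4 this was psilocybin mice 19 to 24 against psilocybin mice 7 to 12, which differ in light exposure under the drug. Only 3 of the 5 reached 30 counts in those 12 mice, while Gabrq (at most 19 counts) and Olfm4 (at most 23) passed the filter through mice 1 to 6, so no test is given for them. Gpr101, Dsc3 and Pappa2 reached 30 counts only in mice 7 to 12, at up to 394, 192 and 46, against at most 26, 28 and 22 in mice 19 to 24. They were thus picked through the group where they were higher, so nothing is read from their tests. Of these 3 genes, edgeR's quasi-likelihood test called 0, where 6.38% of all genes were called. Of the same 3 genes, 2 had an unadjusted p under 0.05 (19.9% of all genes) and DESeq2 called 1 (8.28%). Gpr101 had a mean of 9.70 ± 9.82 in mice 19 to 24 and 88.1 ± 188 in mice 7 to 12 (SD, n = 6), and the log2 fold change was -3.17 (SE 1.12, edgeR adjusted p = 0.0972, exact permutation p = 0.357). Without mouse 7 it was -0.31. Dsc3 had a mean of 10.4 ± 10.2 against 50.2 ± 89.6, with a difference of -2.24 on the log2 scale (SE 0.93, edgeR adjusted p = 0.168, exact permutation p = 0.470), and -0.48 without mouse 7. These differences rested on mouse 7, and the groups overlapped. Pappa2 differed by -0.91 on the log2 scale (SE 0.52, edgeR adjusted p = 0.359, exact permutation p = 0.128). The fitted differences of Olfm4 and Gabrq, given without a test, were -1.07 (SE 0.60) and -0.33 (SE 0.71).

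For Gm26644, Arhgap36, Fibcd1, Pirt and Ndst4 the comparison was psilocybin mice 19 to 24 against PBS mice 13 to 18, the drug at the other light state. Of these, Fibcd1 and Ndst4 reached 30 counts in those 12 mice, while Gm26644 (at most 4 counts), Arhgap36 (at most 21) and Pirt (at most 16) passed the filter through mice 1 to 6, so no test is given for them. Of the 2 genes, edgeR called 0 (0.608% of all genes), 0 had an unadjusted p under 0.05 (9.69%) and DESeq2 called 0 (1.33%). Fibcd1 differed by -0.32 on the log2 scale (SE 0.41, edgeR adjusted p = 0.912, exact permutation p = 0.301) and Ndst4 by -0.20 (SE 0.56, edgeR adjusted p = 0.966, exact permutation p = 0.652). The fitted differences of the other 3 genes, given without a test, were -0.40 (SE 1.29) for Gm26644, 0.27 (SE 0.71) for Arhgap36 and -0.29 (SE 0.85) for Pirt. The exact tests were two-sided, over all splits of 6 against 6 mice, and could not go below 0.00216. A p that misses the threshold does not show that the groups were alike.

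The genes whose levels followed each member most closely were found by Spearman's rho over the 24 libraries, among the 14332 genes whose mean count was 10 or more. This is a description, since the 24 points share the groups. Gpr101 was followed by Popdc3 (0.91), Dpp6 (0.90) and Mycl (0.90), Dsc3 by Erlin2 (0.92), Htr1a (0.91) and Ppl (0.90), and Pappa2 by Hspd1 (0.87), Pcdhga7 (0.87) and Tdrkh (0.85). Gabrq was followed by Trhr (0.87), Glra3 (0.85) and 1500009L16Rik (0.85), and Olfm4 by Gap43 (0.88), Trhr (0.87) and Lman2l (0.87). Fibcd1 was followed by Pde11a (0.87), Acp7 (0.83) and Nrp2 (0.83), and Gm26644 by Tigar (0.84), Slc10a4 (0.83) and Acp7 (0.82). Pirt was followed by Ctxnd1 (0.90), Cdk18 (0.89) and Nts (0.87), Ndst4 by Gprin2 (0.88), Nts (0.88) and Phlpp1 (0.86), and Arhgap36 by Nrip2 (0.83), Ivd (0.79) and Asl (0.79).

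Some of these genes were named for more than 1 member and fell with them. Trhr, the receptor of thyrotropin-releasing hormone, was at 471 ± 298 in mice 1 to 6 and 86.2 ± 54.5, 57.4 ± 14.1 and 45.5 ± 20.7 in mice 7 to 12, 13 to 18 and 19 to 24 (normalized count, SD, n = 6). Nts, which codes for the neuropeptide neurotensin, was at 116 ± 65.0 in mice 1 to 6, and its means were 15.5, 13.7 and 16.8 in mice 7 to 12, 13 to 18 and 19 to 24. Acp7, an acid phosphatase gene, was at 36.5 ± 25.5 in mice 1 to 6 and at 2.86 or less in the other groups on average. Htr1a, the 5-HT1A serotonin receptor gene, which followed Dsc3, was at 775 ± 226 in mice 1 to 6, 517 ± 292 in mice 7 to 12, 428 ± 40.5 in mice 13 to 18 and 358 ± 56.4 in mice 19 to 24.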

How the data were processed

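RNA-seq was made from the visual cortex of 24 mice in 4 groups of 6. The deposited values are raw counts per Ensembl gene, which the authors made by trimming with cutadapt, mapping with STAR to GRCm39 (the labels name mm10) and counting with htseq-count; versions, the annotation release and the strand setting are not given in the sources used here. Within groups, the 60 pairs of libraries differed by more than sampling noise (lowest chi-square per degree of freedom 3.02), so none was merged. The 14464 genes reaching 30 counts in some library were kept, and edgeR 4.0.16 (R 4.3.3) fitted all 24 libraries with TMM factors, 1 term per group, glmQLFit and glmQLFTest with Benjamini-Hochberg adjustment over all genes at a threshold of 0.05. DESeq2 1.42.0 was an alternative, and the code was tested on simulated data. Exact permutation tests used log2(normalized count + 2). Symbols, positions and promoter windows came from GENCODE vM39. The members and the gene lists (17 marker and 9 partner lists) were chosen with earlier results of these data known. The text names the members, the 3 genes most like each, the first genes outside the choice, and up to 3 called genes a partner list by size of change.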

Additional observations from a re-analysis of the deposited data

Results flagged for a closer look

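In 8 of the 40 sets of 6 mice (10 genes in 4 groups), the highest mouse stood apart from the next by more of the range of the set than Dixon's 95% critical value allows, which chance does in about 1 in 20 sets of normal values. Normalized counts are skewed and some of the sets chose the genes, so nothing is read from this number. Psilocybin mouse 7 was such a mouse for 3 genes of its group, Gpr101 at 471.19 against a next highest of 30.54, Dsc3 at 229.62 against 49.05, and Fibcd1 at 291.8 against 181.28. PBS mouse 1 was such a mouse for Gabrq at 509.92 against 99.71 and for Arhgap36 at 314.9 against 118.71. The others were Gpr101 in psilocybin mouse 22 at 28.48 against 9.71, Olfm4 in psilocybin mouse 12 at 23.02 against 8.3, and Arhgap36 in PBS mouse 17 at 17.56 against 7.46. Several sets share a mouse, so they are not independent of each other. Values are normalized counts.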

How the results depend on the processing

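The fitted falls from mice 1 to 6 kept their sign under every alternative run, and 893 of 900 values moved by less than the spread between replicates. The choice of the genes favoured that sign, and many runs left out a mouse outside the comparison. The spread was also wide, with SDs of 0.77 to 1.82 in log2 levels of mice 1 to 6. Gabrq in mice 13 to 18, at -2.22 without mouse 1, counted as unmoved. Little is therefore read from the 893. The median fall lay between -3.78 and -3.45 (mice 13 to 18), -3.44 and -3.04 (7 to 12) and -3.82 and -3.51 (19 to 24) when 1 library at a time was left out. Without mice 2, 3, 4 and 5 it was -2.97, -2.58 and -3.26. Beside the changes given in the report for Gpr101, Dsc3, Gabrq, Arhgap36, Pirt and Ndst4, fitted folds moved by over 1.5 times when 1 library was left out for Gm26644, to -6.09 without mouse 13 (mice 13 to 18) and to -7.18 without mouse 9 (mice 7 to 12), and for Gpr101, to -7.08 without mouse 22 (mice 19 to 24). In the comparisons not used for the choice, the count of called members stayed at 0 with DESeq2 size factors, either other filter, the 2 groups alone (3 and 2 of the 5 members then passed the filter) and each library left out. DESeq2 called 1 in mice 19 to 24 against 7 to 12 (Gpr101, log2 fold change -3.18, DESeq2 adjusted p = 0.0286). As given in the report, Gabrq, Olfm4, Gm26644, Arhgap36 and Pirt passed the main filter through mice 1 to 6. In the 2 groups of their comparison, Gpr101, Dsc3 and Pappa2 reached 30 counts only in mice 7 to 12. Nothing is therefore read from the steady count or from the Gpr101 call, and only Fibcd1 and Ndst4 are free of this limit. The uncalled estimates against mice 13 to 18 changed sign for some libraries left out, with ranges of -0.82 to 0.44 for Gm26644, -0.12 to 0.67 for Arhgap36, -1.04 to 0.39 for Pirt and -0.91 to 0.16 for Ndst4. No paired analysis was possible because no replicate number is shared between groups. Low counts outside mice 1 to 6 limit Gm26644, Pirt, Gabrq, Olfm4 and Arhgap36, and 6 mice a group and a wide spread limit the rest. The common biological coefficient of variation of 0.182 is that of all genes. In mice 1 to 6 the 10 genes had a median SD of 1.19 in log2 levels, against 0.22 over all genes.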
